A study of Mus musculus with 2 samples.

Results

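Glycolysis splits glucose into pyruvate, which lactate dehydrogenase can turn into lactate, and most of its steps are carried out by alternative isoforms encoded by separate genes. The pentose phosphate pathway branches off after the first step and supplies NADPH and ribose. Osteoclasts, the multinucleated cells that resorb bone, are known to depend on both glycolysis and mitochondrial respiration, and activated macrophages are known to rely on glycolysis. The genes described here are 32 listed glucose transporters, glycolytic enzymes, lactate carriers and pentose phosphate enzymes, each found by its symbol in the probe annotation of the array platform. Probes were listed for 28 of the 32 (49 probes), out of 19057 genes with a probe of their own in the series. The 4 genes with no listed probe, Hk2, Gpi1, Eno1 and G6pdx, were not analysed here. Of the 28, 26 were well above background on both arrays, Pgam2 on the osteoclast array only, and Pgd on neither.

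The study compared 1 sample of osteoclasts with 1 sample of macrophages, each standing for 3 C57BL/6J mice aged 8 to 12 weeks, and each hybridised to 1 Illumina bead array. Both came from whole marrow of tibia and femur plated with 25 ng/ml macrophage colony-stimulating factor (M-CSF) for 4 days; the osteoclasts had 3 more days with the same M-CSF and 30 ng/ml soluble RANKL, the cytokine that drives osteoclast formation. The labels do not say when the macrophages were taken, nor describe a removal of other marrow cells. They place the arrays on different chips, so chip, any handling day and cell type cannot be told apart. There was no replicate array, so no value below has a replicate error, no test was possible, and each difference is between these 2 samples. In bulk RNA, more cells of a type and more RNA per cell cannot be told apart.

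The osteoclast array was brighter as a whole, with an upper quartile of probe intensity of 81.7 against 39.6 on the macrophage array, so raw intensities are given first for each gene and the difference after normalization second. That difference is osteoclast minus macrophage in log2 units of the background-corrected intensity plus 16 after quantile normalization, and it understates the change of dim genes. A gene is called higher or lower where it was well above background on at least 1 array and at least 2-fold apart; the probe with the highest mean signal stands for it. Of 8 detected osteoclast markers 7 were at least 2-fold higher in osteoclasts (cathepsin K gene Ctsk, intensity 50206 against 55.4), while Atp6v0d2 stayed near background on both. All 7 macrophage markers with a probe were at least 2-fold lower but still detected in osteoclasts. Markers of cells outside the monocyte lineage also differed between the arrays. In osteoclasts 16 of 20 detected skeletal muscle markers and 9 of 10 epidermal markers passed 2-fold upward, and 11 of 11 granulocyte markers passed it downward. Fibroblast markers passed it upward in 5 of 7 detected genes, or 4 at their bounds, and erythroid markers in 2 of 3.

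Of the 27 detected members, 9 were higher in osteoclasts by 2-fold or more, 3 were lower by as much and 15 fell between these limits. Their median difference was 0.57 log2 units, against -0.05 over all 13001 detected genes. The share of higher genes was 33.3% among the members and 11.5% among all detected genes, of which 8.21% were lower and 19.7% passed 2-fold either way. A difference above 0 was found in 20 of the 27 members and in 47.5% of all detected genes. Bright genes were also compared with bright genes: of the 10 members among the 1301 genes of highest mean signal, 4 were higher, 0 lower and 9 above 0. Of those 1301 genes, 12.1% were higher, 10.8% lower, 22.9% past 2-fold either way and 50.2% above 0. By role, every one of the 9 higher genes encodes an enzyme between phosphofructokinase and lactate dehydrogenase. The 3 lower genes are glucose transporters Slc2a3 and Slc2a6 and the regulator gene Pfkfb4. The 4 detected pentose phosphate genes lay within 2-fold after quantile normalization, as did 10434 of the 13001 detected genes.

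**Figure D1:**
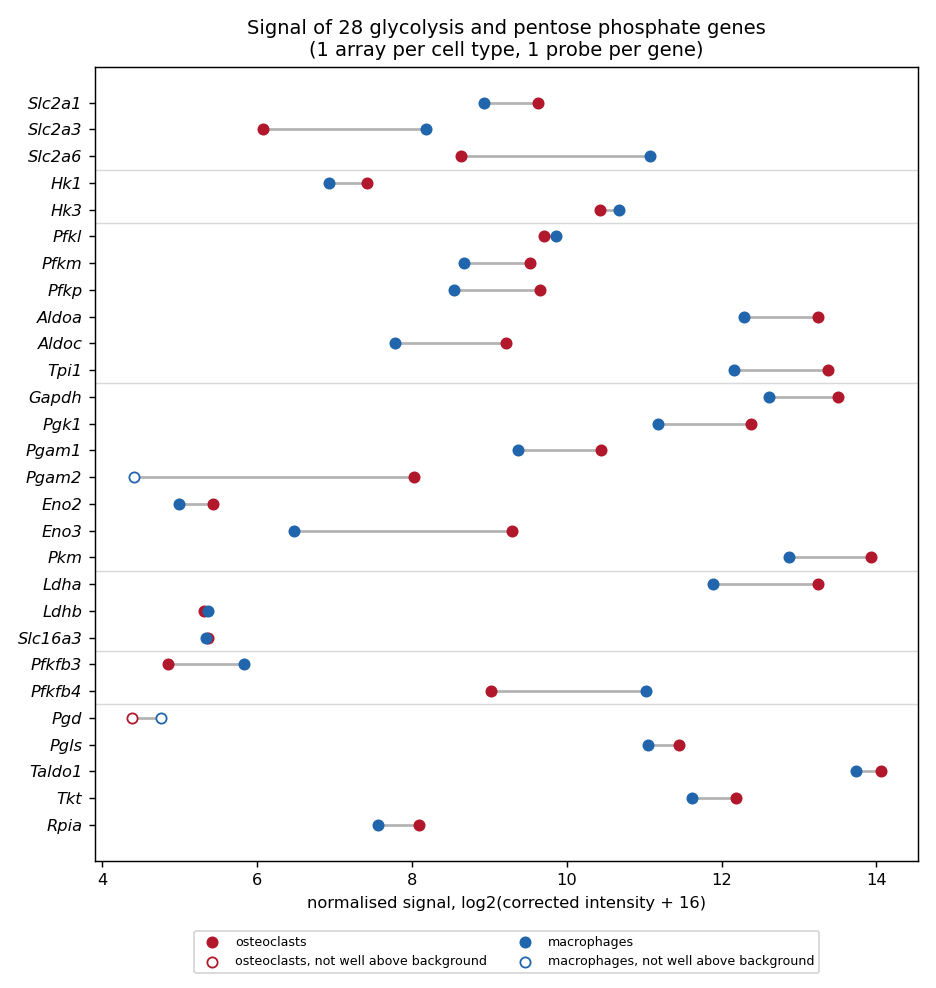
Normalised signal of the 28 genes with a probe, as log2(corrected intensity + 16), in osteoclasts (red) and macrophages (blue), 1 array each; open circles were not well above background. The longest gaps with the red point to the right are those of Pgam2 and Eno3, and with the red point to the left those of Slc2a6, Slc2a3 and Pfkfb4.

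Glucose enters the cell through facilitative transporters, and the 3 on the list went in different directions. Slc2a1, which encodes the widespread basal transporter GLUT1, had an intensity of 1026 in osteoclasts and 341 in macrophages. After normalization it differed by 0.70 log2 units, 1.62-fold higher and within the 2-fold limit. Slc2a3, which encodes the high-affinity transporter GLUT3, had 66.3 in osteoclasts and 194 in macrophages and was 4.29-fold lower in osteoclasts (-2.10 log2 units). Slc2a6, which encodes GLUT6, a transporter of internal membranes, had 518 in osteoclasts and 1648 in macrophages and was 5.44-fold lower (-2.44). For Slc2a3 and Slc2a6 the osteoclast value was the lower one already in the raw intensities, although that array was the brighter. Without any normalization between arrays they differed by -1.28 and -1.63, so both stayed at least 2-fold lower. Each of the 3 transporters was read by 1 probe. Granulocytes are known to carry GLUT3, and the 11 detected granulocyte markers summed to an intensity of 875 in osteoclasts and 49267 in macrophages; Mpo, Retnlg and Ctsg were not well above background in osteoclasts, and all were detected in macrophages. The part of these cells in the transporter values was not tested.

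Hexokinases trap glucose as glucose 6-phosphate. Hk1, the form found in most cells, had 209 in osteoclasts and 69.7 in macrophages, a normalised difference of 0.49. Its second probe differed by 0.96. Hk3, a form known from myeloid cells, had 1803 in osteoclasts and 1228 in macrophages, a difference of -0.24 that turned to 0.55 without normalization. Neither hexokinase reached 2-fold after quantile normalization. Hk1 passed it without normalization (1.36) and with median scaling on all probes (1.06).

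In the upper part of the pathway 3 of 6 detected genes passed 2-fold upward and 0 downward, with a median difference of 1.03. Aldoa, the aldolase that cleaves fructose 1,6-bisphosphate in most tissues, had 12311 in osteoclasts and 3956 in macrophages and a difference of 0.95, just short of 2-fold. Tpi1, which encodes triosephosphate isomerase, had 13166 in osteoclasts and 3611 in macrophages (1.21, 2.32-fold higher). The other probes of Tpi1 differed by 0.95 and 1.11, so all 3 lay close together. Aldoc, an aldolase known from brain, was 2.69-fold higher at the probe that stands for it (772 in osteoclasts and 144 in macrophages). Its second probe read 7.72 in osteoclasts and 12.1 in macrophages and differed by -0.50, so the call of Aldoc rests on 1 of 2 probes.

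The lower part of the pathway, from glyceraldehyde 3-phosphate to pyruvate, held 5 genes of 7 detected past 2-fold upward and 0 downward, and all 7 differences were above 0. These 5 include the muscle isoforms Pgam2 and Eno3; leaving out muscle isoforms, 3 of 5 detected genes passed 2-fold in the lower part and 3 of 5 in the upper part. Pgk1 (phosphoglycerate kinase, which makes ATP) had 6734 in osteoclasts and 1774 in macrophages and was 2.30-fold higher. A second probe read 45.6 in osteoclasts and 3.53 in macrophages, not well above background there (at least 1.94-fold higher), and its last probe was detected on neither array. Pgam1, the mutase of most tissues, had 1807 in osteoclasts and 475 in macrophages (2.10-fold higher), with 0.73 log2 units at its second probe. Pkm (pyruvate kinase, the last ATP-yielding step) had 18934 in osteoclasts and 5923 in macrophages and lay just above the limit at 2.08-fold. Gapdh (glyceraldehyde 3-phosphate dehydrogenase), often used as a constant reference gene, had 14411 in osteoclasts and 4973 in macrophages and lay just below it at 1.87-fold (0.90). In the authors' processed values the difference was 0.79 for Gapdh and 0.93 for Pkm, which puts Pkm below 2-fold too.

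Ldha, the lactate dehydrogenase subunit that favours lactate formation, had 12337 in osteoclasts and 2999 in macrophages and was 2.56-fold higher (1.36). Ldhb, the subunit of the heart type, read 25.9 in osteoclasts and 15.0 in macrophages at its only listed probe and differed by -0.04. Slc16a3, which encodes the lactate exporter MCT4, read 27.7 in osteoclasts and 14.5 in macrophages and differed by 0.03; its other probes were not well above background on either. The differences of Ldhb and Slc16a3 rest on probes near background, and that of Slc16a3 turned to -0.29 with scaling on the probes detected on both arrays.

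The promoter sequences of Ldha, Pgk1 and Pgam1 are shown as examples of higher genes, and others that were also past 2-fold are not printed. All 3 encode isoforms of most tissues, and glycolytic promoters are known to carry binding sites of hypoxia-inducible factor (HIF). The windows run from 250 bases before to 50 after an annotated start, 5′ to 3′ on the gene's strand, from RefSeq on GRCm38.p6. They lie at chr7:46845554-46845853 (plus strand, the first of 2 listed starts of Ldha), chrX:106186850-106187149 (plus strand, Pgk1) and chr19:41911621-41911920 (plus strand, Pgam1). Capitals mark every match to the HIF core ACGTG or GCGTG on either strand; CACGTG, a known Myc and Usf motif, contains ACGTG on both strands.
Ldha: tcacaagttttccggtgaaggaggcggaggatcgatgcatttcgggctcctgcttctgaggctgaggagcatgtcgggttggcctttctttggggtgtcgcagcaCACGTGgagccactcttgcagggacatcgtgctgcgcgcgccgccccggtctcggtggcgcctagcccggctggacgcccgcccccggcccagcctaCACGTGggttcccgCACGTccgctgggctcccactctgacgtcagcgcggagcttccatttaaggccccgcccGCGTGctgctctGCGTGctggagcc
Pgk1: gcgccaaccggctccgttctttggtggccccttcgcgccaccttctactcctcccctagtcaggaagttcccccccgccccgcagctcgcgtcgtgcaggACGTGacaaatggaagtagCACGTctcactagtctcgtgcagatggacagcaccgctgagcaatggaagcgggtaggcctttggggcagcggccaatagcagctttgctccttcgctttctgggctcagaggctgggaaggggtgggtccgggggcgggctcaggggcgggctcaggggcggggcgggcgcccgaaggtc
Pgam1: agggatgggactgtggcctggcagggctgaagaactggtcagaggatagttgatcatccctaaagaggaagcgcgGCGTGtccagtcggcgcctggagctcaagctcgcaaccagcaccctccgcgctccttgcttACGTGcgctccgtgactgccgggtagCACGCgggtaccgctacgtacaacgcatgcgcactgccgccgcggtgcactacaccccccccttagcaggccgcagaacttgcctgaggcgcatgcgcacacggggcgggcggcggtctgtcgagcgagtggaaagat
The Ldha window held 5 marked stretches, of which 2 were CACGTG, the Pgk1 window 2 and the Pgam1 window 3. Among the higher genes not printed here, the Tpi1 window held neither core. The first listed Pkm window held neither core, and the second held 2 matches to ACGTG. RefSeq windows were listed for 31 of the 32 members (44 windows, none for Slc2a3). ACGTG was present in 40.9% of the member windows and in 19.6% of all 32851 windows of the same length. GCGTG was present in 59.1% of member windows and in 32.4% of all windows. The member windows were also richer in G and C, with a median of 60.3% against 52.7% over all windows, and the part of base composition in these shares was not tested. Either core was present in 79.5% of member windows and in 43.8% of all windows. By call, counting a gene with several windows once if any held a core, 7 of the 9 higher members had a window with either core, as had 14 of the 15 within 2-fold and both of the 2 lower members with a window.

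**Figure D2:**
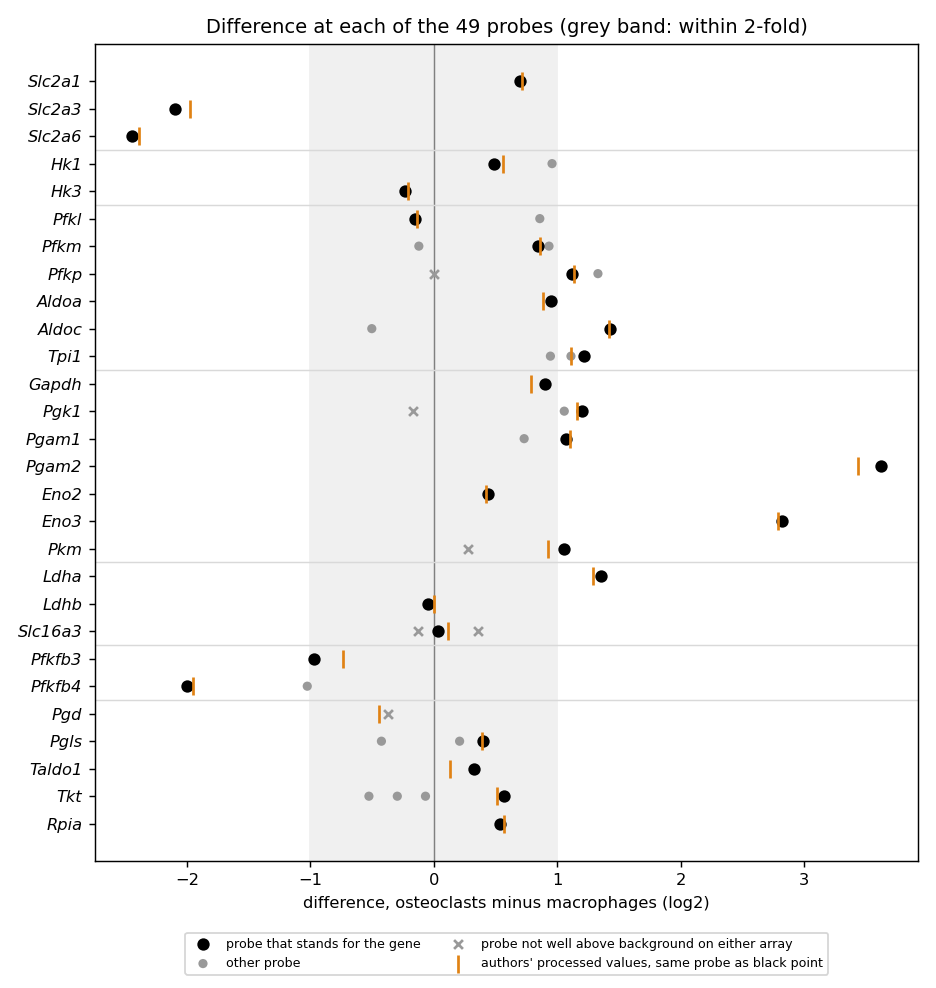
Difference between osteoclasts and macrophages (log2) at each of the 49 probes of the 28 genes, with the probe that stands for each gene in black, its other probes in grey or as crosses, and the authors' processed value of the black probe as an orange bar. The orange bars lie beside the black points for each gene, at most 0.24 apart (Pfkfb3), and the probes of Aldoc and Pfkm spread by over 1 log2 unit.

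Fructose 2,6-bisphosphate is the main activator of phosphofructokinase, and the bifunctional Pfkfb enzymes make and break it. Both listed members were lower in osteoclasts in the raw intensities. Pfkfb4 had 676 in osteoclasts and 1572 in macrophages and was 4.01-fold lower (-2.00). Its second probe read 5.06 in osteoclasts, not well above background, and 21.1 in macrophages (at least 1.92-fold lower). Pfkfb3, the form with high kinase activity, read 11.5 in osteoclasts and 25.5 in macrophages and differed by -0.97, just inside the 2-fold limit. It passed the limit without background correction (-2.12) and with scaling on the probes detected on both arrays (-1.27). Of the other genes of this family, Pfkfb2, known from heart, went the opposite way, with 439 in osteoclasts and 44.1 in macrophages (3.97-fold higher), and Pfkfb1 had no listed probe. A second probe of Pfkfb2, not well above background in macrophages, differed by 0.93 at its bound, and the last was detected on neither array. These related genes thus differed in opposite directions between the samples, by -2.00 for Pfkfb4 and 1.99 for Pfkfb2.

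**Figure D3:**
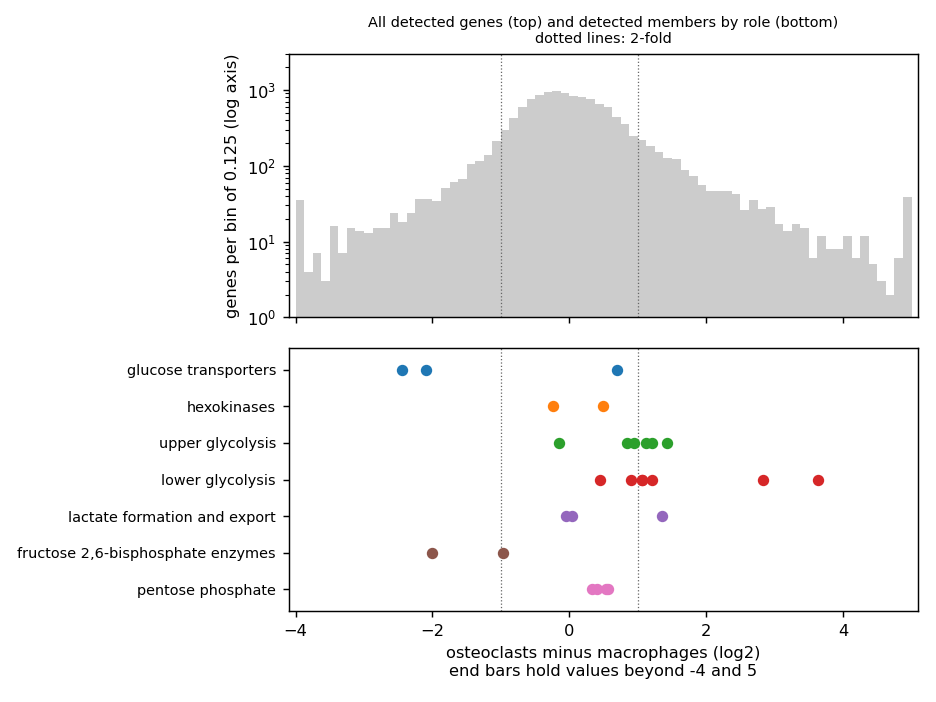
Differences between osteoclasts and macrophages (log2) of all 13001 detected genes as a histogram with a log axis (upper panel) and of the 27 detected members by role (lower panel), with 2-fold marked by dotted lines. The enzymes of upper and lower glycolysis gather near and above 1, the pentose phosphate enzymes lie between 0.33 and 0.57, and 2 transporters and Pfkfb4 lie at or below -2.00.

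The muscle isoforms stood above the others in 2 of 3 enzymes. Eno3 (Entrez Gene 13808), the enolase of skeletal muscle, had 822 in osteoclasts and 46.5 in macrophages and was 7.08-fold higher (2.82), the largest difference of a member detected on both arrays. Pgam2 (Entrez Gene 56012), the muscle mutase, had 334 in osteoclasts and -0.87 in macrophages, where it was not well above background, and was at least 9.49-fold higher. Over all detected genes 1.24% were at least 8-fold higher at their bound. Pfkm (Entrez Gene 18642), the muscle phosphofructokinase, had 960 in osteoclasts and 283 in macrophages and differed by 0.85, within 2-fold. Its other probes differed by 0.93 and -0.12. Eno3 and Pgam2 were read by 1 probe each.

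Set against their relatives, the 3 muscle isoforms did not behave alike. For the mutases, the difference of Pgam2 exceeded that of Pgam1 by 2.56 log2 units, or by 2.18 with Pgam2 at its bound. For the enolases the ubiquitous Eno1 had no listed probe; Eno1b, a near-identical copy whose probe may also read Eno1 transcripts, had 329 in osteoclasts and 82.5 in macrophages and differed by 0.89. Eno3 exceeded it by 1.93. This comparison was chosen after the values were seen. Eno2, the enolase of neurons, read 30.2 in osteoclasts and 8.00 in macrophages and differed by 0.44. For the phosphofructokinases, Pfkm exceeded the liver form Pfkl (1081 in osteoclasts and 683 in macrophages, -0.15) by 1.00, but fell short of the platelet form Pfkp (1051 in osteoclasts and 255 in macrophages, 1.12) by a difference of -0.28. Pfkp, with 1.33 at its second detected probe, was thus the 1 phosphofructokinase gene past 2-fold. The gap of Pfkm over Pfkl was 0.20 when all probes of a gene were averaged (0.55 for Pfkm and 0.35 for Pfkl) and 0.70 over probes detected on both arrays. The second Pfkl probe read 29.8 in osteoclasts and 1.66 in macrophages, under the detection limit there, which gives a difference of at least 1.55-fold.

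**Figure D4:**
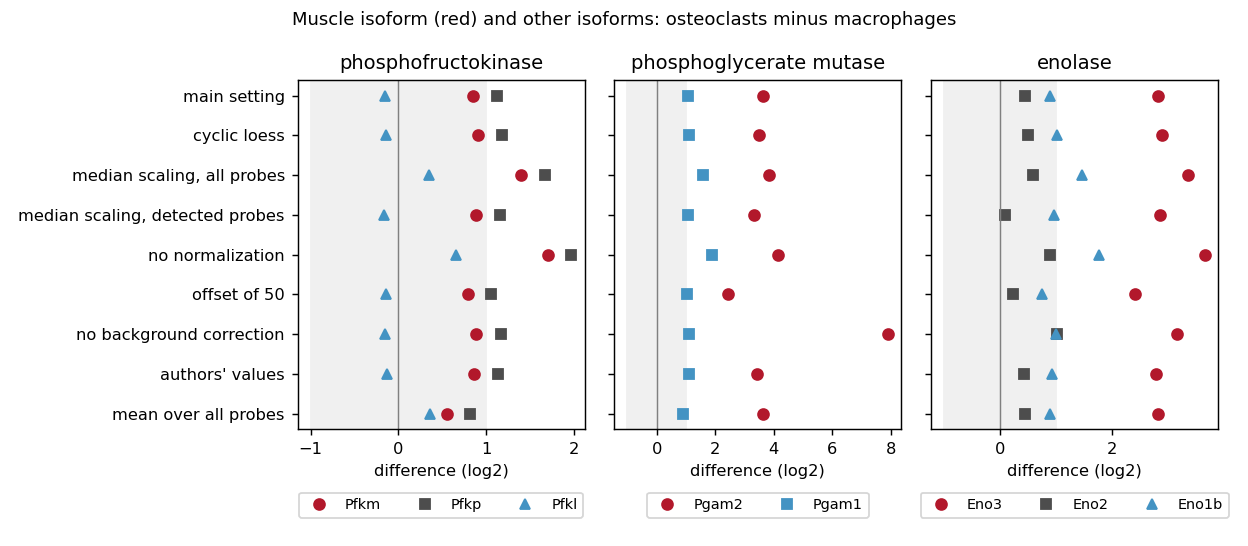
Difference between osteoclasts and macrophages (log2) of the isoforms of 3 enzymes under 9 processing settings, with the muscle isoform in red and the grey band within 2-fold. Pgam2 and Eno3 lie to the right of their relatives in every setting shown, while Pfkm lies between Pfkl and Pfkp in every one. Gaps between isoforms are the same without normalization and with either median scaling.

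Muscle transcripts as a group were higher in the same sample. Of 24 skeletal muscle markers, 22 had a probe and 20 were detected; of these 16 passed 2-fold upward in osteoclasts and 0 downward, with a median difference of 3.29 (3.01 at the bounds). Their summed intensity was 18264 in osteoclasts and 252 in macrophages. In the macrophage sample Acta1, Ckm, Myh1, Myh4, Myh7, Tnnc2, Pvalb, Myl1, Tcap and Ckmt2 were not well above background, and Tnni1 was not in osteoclasts. The actin gene Acta1 (4683 in osteoclasts) was at least 134-fold higher, the myosin light chain gene Myl1 (3079) at least 87.7-fold and the troponin gene Tnnc2 (1933) at least 54.0-fold. The other probes of Myl1 gave bounds of 3.86 and 0.81 log2 units. The part of muscle RNA in the values of Eno3, Pgam2 and Pfkm, or of any other member, was not tested. Leaving out Eno3, Pgam2 and Pfkm, 7 of the remaining 24 passed 2-fold upward and 3 downward, and the median was 0.51 in place of 0.57. Leaving them out does not take muscle RNA out of the values of the remaining members. Neuron markers, of the cells known for Eno2 and Aldoc, had a median of -0.27 with 1 of 6 detected genes higher (Syn1, 2.12-fold).

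The promoters of Pgam2 and Eno3 are shown because these muscle isoforms had the largest differences. The windows lie at chr11:5803747-5804046 (minus strand, Pgam2) and chr11:70656926-70657225 (plus strand, Eno3), from the same RefSeq table. Capitals mark matches to CAGCTG, an E-box known from muscle genes, or to the consensus of MEF2, a muscle transcription factor; both read the same on either strand.
Pgam2: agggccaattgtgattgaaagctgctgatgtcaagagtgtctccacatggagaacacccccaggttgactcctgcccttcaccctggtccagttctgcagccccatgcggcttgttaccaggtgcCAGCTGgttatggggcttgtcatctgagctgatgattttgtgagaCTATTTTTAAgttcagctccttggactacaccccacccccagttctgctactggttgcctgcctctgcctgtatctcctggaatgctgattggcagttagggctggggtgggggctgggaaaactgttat
Eno3: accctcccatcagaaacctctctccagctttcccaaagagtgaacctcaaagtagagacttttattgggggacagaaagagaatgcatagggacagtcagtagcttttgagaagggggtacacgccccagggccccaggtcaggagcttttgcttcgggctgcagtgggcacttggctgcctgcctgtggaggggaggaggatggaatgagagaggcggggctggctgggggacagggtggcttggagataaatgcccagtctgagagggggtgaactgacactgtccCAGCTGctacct
The Pgam2 window held 1 match to each and the Eno3 window 1 CAGCTG. That E-box was present in 13.6% of member windows and 16.3% of all windows, and the MEF2 consensus in 2.27% of member windows and 3.19% of all windows, where Pgam2 was the 1 gene with it. The Pgam2 window held neither HIF core, and the Eno3 window held GCGTG once.

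The detected pentose phosphate enzymes lay within 2-fold after quantile normalization, as did 10434 of all 13001 detected genes. Of 4 detected genes 0 passed the limit, all 4 differences were above 0 and the median was 0.47, against 0.85 for the 23 detected glycolysis members. Taldo1 (transaldolase) had 20180 in osteoclasts and 11018 in macrophages and differed by 0.33. Tkt (transketolase), its partner in the branch that moves carbon back to glycolysis, had 5861 in osteoclasts and 2436 in macrophages and differed by 0.57. Pgls, of the oxidative branch, had 3577 in osteoclasts and 1609 in macrophages (0.40), and Rpia, which makes ribose 5-phosphate, had 351 in osteoclasts and 121 in macrophages (0.53). Without normalization Pgls (1.14), Tkt (1.26) and Rpia (1.41) passed 2-fold, and with median scaling on all probes Rpia did (1.10). The other probes of Tkt and Pgls were dim. Those detected on both arrays differed by -0.07 and -0.30 for Tkt and by -0.42 for Pgls, and those detected on 1 array had bounds of -0.12 for Tkt and 0.11 for Pgls. Averaging all probes gave a difference of -0.08 for Tkt. Pgd, of the oxidative branch, was not well above background at its only listed probe, with -1.43 in osteoclasts and 4.47 in macrophages. Of the first enzyme, G6pdx, no probe was listed; its retrogene copy G6pd2 read 7.24 in osteoclasts and 6.33 in macrophages.

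Genes around the pathway were read from lists of their own. Among genes of the pyruvate dehydrogenase complex and the kinases and phosphatase that regulate it, 5 of 9 detected passed 2-fold upward, or 4 at their bounds, and 0 downward, with a median of 1.26 (0.75 at the bounds). The pyruvate carriers Mpc1 and Mpc2 had no listed probe. Of the 5, Pdk1 and Pdk4 encode kinases that inhibit the complex and the others its subunits. Pdk1 had 1191 in osteoclasts and 147 in macrophages (4.07-fold higher). The dehydrogenase subunit gene Pdhb had 1975 in osteoclasts and 383 in macrophages (2.83-fold higher). Pdha1, for another subunit, had 3268 in osteoclasts and 740 in macrophages (2.55-fold higher). The other probes of Pdhb differed by 1.19 and 0.28, and that of Pdk1 by 0.23 at its bound. Genes for a kinase and for subunits of the complex that it inhibits were thus higher in the same sample.

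Glycogen genes had a median of -0.09, with 1 of 10 detected genes higher, or 0 at their bounds, and 2 lower. These were the phosphorylases of brain, Pygb (394 in osteoclasts and 605 in macrophages, 2.71-fold lower), and of liver, Pygl (1536 in osteoclasts and 2285 in macrophages, 2.50-fold lower), which release glucose from glycogen. The muscle phosphorylase gene Pygm read 29.5 in osteoclasts, where it was at least 1.54-fold higher, and was not well above background in macrophages. Other muscle forms near background, named after their values were seen, were Phkg1 (at least 1.07-fold higher), Phka1 (-0.05), Fbp2 (0.08) and Slc2a4 (0.05). Slc2a4 encodes the insulin-responsive transporter GLUT4. Gluconeogenesis genes had a median of 0.15, and 0 of 5 detected reached 2-fold. Fbp1 was at least 1.05-fold higher, G6pc3 differed by 0.51 and G6pc by -0.39. Of 11 detected genes among other isoforms of the pathway 2 were higher (Pfkfb2 and Ldhd) and 0 lower, with a median of -0.26. With Ldhd at its bound, 1 was higher (Pfkfb2, detected on both arrays). Ldhd was at least 1.44-fold higher and Ldhc at least 1.67-fold lower.

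Of 19 detected regulators of glycolysis and other targets of HIF, 13 lay within 2-fold, as did 10434 of all 13001 detected genes. Upward 2 of the 19 passed 2-fold and downward 4, with a median of -0.17. Among all detected genes 11.5% passed it upward and 8.21% downward. Vegfa, a growth factor gene and known HIF target, had 224 in osteoclasts and 514 in macrophages and was 3.89-fold lower, at a second probe by -1.81. Txnip, which restrains glucose uptake, had 6021 in osteoclasts and 9196 in macrophages and was 2.38-fold lower, at a second probe by -1.45. Myc, a transcription factor known to drive glycolytic genes, had 111 in osteoclasts and 5.81 in macrophages and was 3.39-fold higher; its other probe was detected on neither array. The other genes of this list past 2-fold, named after their values were seen, were Hif1a, Vhl and Ankrd37. Hif1a had 169 in osteoclasts and 205 in macrophages and differed by -1.13. Vhl had 76.5 in osteoclasts and 91.8 in macrophages and differed by -1.02. In the authors' processed values both fell short of 2-fold, at -0.999 for Hif1a and -0.88 for Vhl. Ankrd37, listed as a HIF target, went the opposite way to Vegfa and was 2.17-fold higher in osteoclasts (1.12).

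**Figure D5:**
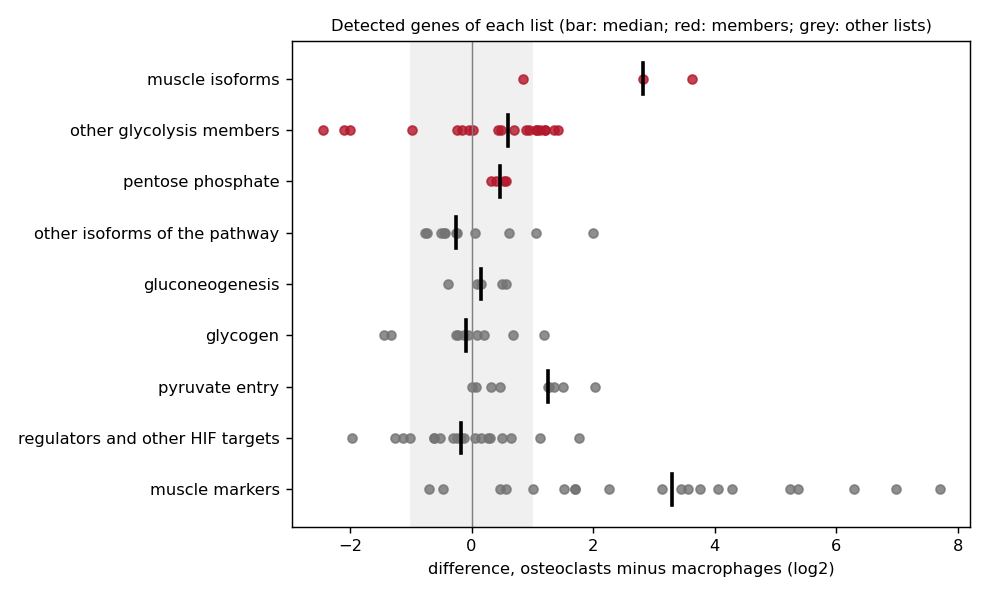
Difference between osteoclasts and macrophages (log2) of each detected gene (points) and the median (black bar) in 3 groups of members (red) and 6 other lists (grey), with the grey band within 2-fold. Medians run from -0.26 for other isoforms of the pathway to 3.29 for muscle markers; pyruvate entry (the pyruvate dehydrogenase complex and its regulators) lies at 1.26 and pentose phosphate at 0.47.

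Most members kept the direction of their difference in the settings run. In 12 alternative settings, of which 10 give a value for Pgam2, 21 of 27 detected members kept the sign of their difference. The exceptions were Hk3, Pfkl, Ldhb, Slc16a3, Pgls and Tkt. Settings that change only the detection rule or use bounds repeat the main value of every member but Pgam2, so sign and call could not change there. Averaging probes could not change the members with 1 probe. Calls past 2-fold held in all settings that could be run for Tpi1, Ldha, Eno3 and Pgam2 among the higher genes and for all 3 lower genes. Aldoc, Pfkp, Pgk1, Pgam1 and Pkm fell within 2-fold under at least 1 setting. Scaling moved the calls: the median of all detected genes shifted by 0.64 without normalization, where 17 members were higher and 3 lower, and by -0.17 with scaling on the probes detected on both arrays, where 8 were higher and 4 lower. Relative to the median of all genes, the member median lay 0.55 to 0.81 log2 units higher in every setting run. A shift of a whole array cancels in this value. It was therefore 0.81 without normalization and with either median scaling, which are not separate checks.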

How the data were processed

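The members and gene lists were chosen with earlier results of these data known. The authors deposited 1 intensity per probe and array, not normalized and with a background already subtracted (36.9% of osteoclast and 38.4% of macrophage values lie below 0), and a processed table on a log2 scale; how either was made is not stated in these sources. Across 5844 probes above 200 on both arrays, the authors' log2 difference followed that of the intensities with a slope of 0.97 (r = 0.999 across probes, which are not independent replicates), so its scale and direction are known and its centring is not. No detection p-values were used here.

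Background was estimated for each array as the mode of its intensities, by a kernel density below 50 with a bandwidth of 1, with the SD of values below the mode (-5.33, SD 5.40, for osteoclasts and -3.60, SD 3.66, for macrophages). It entered limma's normexp (limma 3.58.1, R 4.3.3), with an offset of 16, before log2 and quantile normalization. Detection meant an intensity above 7.23 in osteoclasts and 4.91 in macrophages, a one-sided p of 0.01 under a normal background; the true false rate is unknown. The number of arrays limits the precision. With 1 array per group no test was run. For genes detected on 1 array, "at least N-fold" sets the detected value against the dim array's lowest detected signal or the gene's own value there, whichever is higher. Only the normalization and detection limits were tried on simulated data, built from the macrophage array with some bright probes changed equally often up and down. Gene calls, bounds, changes of dim probes and changes mostly in 1 direction were not simulated. Of 45281 probes, 34885 had 1 gene, 18 several and 10378 none listed; symbols are those of the platform annotation. All detected members are given by role; of each neighbouring pathway list and of muscle markers, the 3 detected genes with the largest differences, and others only as examples or where said to be chosen after their values were seen. Coordinates and sequences are RefSeq's on GRCm38.p6, not the array's. Python 3.11.15, numpy 2.4.6 and pandas 2.3.3 did the rest. Alternatives were other normalizations, offset 50, no background correction, the authors' values, probe averages, detection rules and bounds.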

Additional observations from a re-analysis of the deposited data

How the results depend on the processing

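No paired analysis was possible because each group has 1 array, and for the same reason no replicate could be left out. The Eno3 minus Eno1 comparison was not run, since Eno1 had no listed probe; comparisons with Eno1b and Pfkp, the enzyme median, the median relative to all genes and scaling on probes detected on both arrays were chosen after seeing the data. A value was held to have moved past 0.58 log2 units or 1.5 times. No member median or isoform contrast changed sign in any setting run. The median of all detected genes did, from -0.05 in the main setting to 0.60 without normalization. The settings that only shift a whole array give the same contrast between isoforms, so they are not separate checks of it. Pgam2 minus Pgam1 has no value where genes or probes must be detected on both arrays. Without normalization the member median was 1.41 (glycolysis 1.54, pentose phosphate 1.20, enzymes from hexokinase to lactate dehydrogenase 1.70), with 17 members at least 2-fold higher and 7 within 2-fold; median scaling on all probes gave 15 and 9. The all-gene counts of 1500 higher and 1067 lower became 3840 and 374, 2501 and 593, and, with scaling on probes detected on both arrays, 1308 and 1740. Among all genes, higher ones made up 58.4% of calls, 91.1% without normalization, 80.8% with median scaling on all probes and 42.9% with scaling on probes detected on both arrays; among members they made up 75% of calls, 85%, 83.3% and 66.7%. Averaging all probes of a gene left 4 higher members (1124 higher and 788 lower genes overall) and a Pfkm minus Pfkl difference of 0.20. The Pgam2 minus Pgam1 difference was 1.40 with an offset of 50 and 6.82 without background correction, where all-gene calls numbered 2816 higher and 2552 lower. The cause of these changes was not tested. Signal near background limits Pgd, Ldhb, Slc16a3, Pfkfb3 and Eno2. Among values of single members, 27 moved and 295 did not, and the latter include values that a setting could not change. Of the medians, counts and contrasts, 12 moved and 130 did not.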
